A study of Homo sapiens with 9 samples.

Results

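The nuclear 5S and 5.8S rRNA genes and their pseudogenes were examined in eCLIP data of MDH2, the malate dehydrogenase of mitochondria. Loci were taken as the identifiers whose GENCODE gene type is rRNA or rRNA_pseudogene, and they were divided by their names into 5S and 5.8S loci. The annotation holds 544 such loci, of which 530 are 5S and 14 are 5.8S, and no 18S or 28S locus is among them. Cross-linking sites were counted on 246 of these loci, 240 of them 5S and 6 of them 5.8S. They account for 747 exon windows out of 15767969 windows in the table, 720 on 5S and 27 on 5.8S loci. Of the 246 loci, 7 have the gene type rRNA and the others are pseudogenes. The data comprise 9 libraries of unmodified Huh7 cells, a human hepatoma line, with 3 replicates in each of 3 groups: the MDH2 IP, the size-matched input (SMI), and the IgG IP, in which isotype-matched IgG replaced the MDH2 antibody. All cells were UV cross-linked. The SMI is a small portion of the lysate kept back before the IP and cut from the same gel range, so it shows the RNA present at that size. The IP libraries were amplified with more PCR cycles than the SMI libraries. All 9 markers of hepatocyte-derived cells that were checked, ALB and AFP among them, had counts in all 9 libraries.

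The unit throughout is the number of cross-linking sites in a window of 50 nt, and neighboring windows of an exon or intron are offset by 20 nt. A site therefore enters up to 3 windows, and a locus value is the sum over its windows. Summed over all windows, the libraries held 5899767 to 9482209 counts in the MDH2 IP, 8311027 to 9788461 in the SMI and 1631220 to 2942624 in the IgG IP. CPM values are counts per 1000000 of these sums, so a lower value means a smaller part of a library and not less RNA recovered.

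5S rRNA is made by RNA polymerase III from a tandem array on chromosome 1, while 5.8S rRNA is cut from the RNA polymerase I precursor that also yields 18S and 28S rRNA. 5S rRNA enters the large ribosomal subunit as the 5S RNP, together with the ribosomal proteins RPL5 and RPL11, and 5.8S rRNA pairs with 28S rRNA in the same subunit. 5S sequence has been copied to many sites of the genome, and most such copies are pseudogenes. A read can be placed at a single copy only where its bases tell the copies apart. Reads with over 10 alignments were discarded by the authors, and this bears on every 5S value below. Reads with 10 or fewer alignments passed this limit, so a count on a locus need not come from a read that fits that locus alone.

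The annotated genes RNA5S1 to RNA5S17 show how far this goes, since 16 of the 17 have the same 119 bases and none of these 16 had a count. The exception is RNA5S9, which differs from them at 1 base. The 5S loci with the most counts are near copies too. RNA5SP202 differs from RNA5S1 at 1 base, and RNA5SP149 at 1 base over its first 91 bases, which align with RNA5S1. Such bases bear on which reads can be assigned to a locus.

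In GRCh38, RNA5S1 lies at chr1:228610268-228610386 on the minus strand and RNA5S9 in the same array at chr1:228628148-228628266. RNA5SP202 lies at chr6:4427963-4428081 on the plus strand, antisense to an intron of a lncRNA, and RNA5SP149 at chr3:180161886-180161977 on the minus strand, outside any other annotated gene. RNA5SP149 is a truncated copy of 92 bases. Stretches of 30 bases taken every 10 bases along RNA5S1 occur at 18 to 53 places of the genome. In RNA5SP202 the 30-base stretches that start at bases 1, 11 and 21 occur once, and those that start at base 31 or later occur 18 to 53 times. In RNA5SP149 only the stretch that starts at base 61 occurs once.

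The 5.8S sequences (GRCh38, read 5′ to 3′ on the RNA strand, as DNA letters) are shown because nearly all 5.8S counts of the IPs lay on 1 locus and could be narrowed to a few of its bases. RNA5-8SN1 is the 5.8S rRNA of 153 bases at chr21:8439823-8439975 on the plus strand. RNA5-8SP2 is a pseudogene of 152 bases at chr16:34162959-34163110 on the plus strand. It differs from RNA5-8SN1 by 13 substitutions and lacks 1 of its bases. Capitals mark RNA positions 81 to 90 in both, counted from 1 at the RNA 5′ end.
RNA5-8SN1: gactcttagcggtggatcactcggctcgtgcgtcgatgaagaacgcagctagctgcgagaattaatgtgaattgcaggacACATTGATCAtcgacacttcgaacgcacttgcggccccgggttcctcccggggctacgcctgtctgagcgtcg
RNA5-8SP2: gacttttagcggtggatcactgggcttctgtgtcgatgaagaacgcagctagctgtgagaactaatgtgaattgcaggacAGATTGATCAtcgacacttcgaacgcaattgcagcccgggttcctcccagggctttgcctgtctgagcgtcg

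RNA5SP216 lies at chr6:125979812-125979934 on the minus strand, antisense to an exon of HINT3, and only its first 50 bases match 5S rRNA, without a difference. RNA5SP481 lies at chr20:32008351-32008472 on the plus strand, antisense to an intron of a lncRNA, and matches 5S rRNA over an inner part of its length.

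The 5S loci together were a smaller part of the MDH2 IP than of the SMI, and the 5.8S loci a larger part. The 5S loci held 148, 302 and 380 CPM in MDH2 IP replicates 1, 2 and 3, 1077, 1287 and 939 in the SMI and 219, 133 and 74.8 in the IgG IP. Every SMI library lay above every IP library, and the 2 kinds of IP overlapped. The means were 276 ± 118 in the MDH2 IP, 1101 ± 176 in the SMI and 142 ± 72.7 in the IgG IP (SD, n = 3 each), so that the SMI was 3.98-fold higher than the MDH2 IP and 7.74-fold higher than the IgG IP. The 5.8S loci held 128, 190 and 137 CPM in the MDH2 IP, 6.38, 8.98 and 5.31 in the SMI, and 207, 79.4 and 50.3 in the IgG IP. Here both kinds of IP lay above every SMI library and again overlapped each other. The mean was 152 ± 33.6 in the MDH2 IP and 6.89 ± 1.89 in the SMI, 22.0-fold higher in the MDH2 IP, and 112 ± 83.5 in the IgG IP (SD, n = 3 each). These are sums over chosen loci and carry no test.

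**Figure D1:**
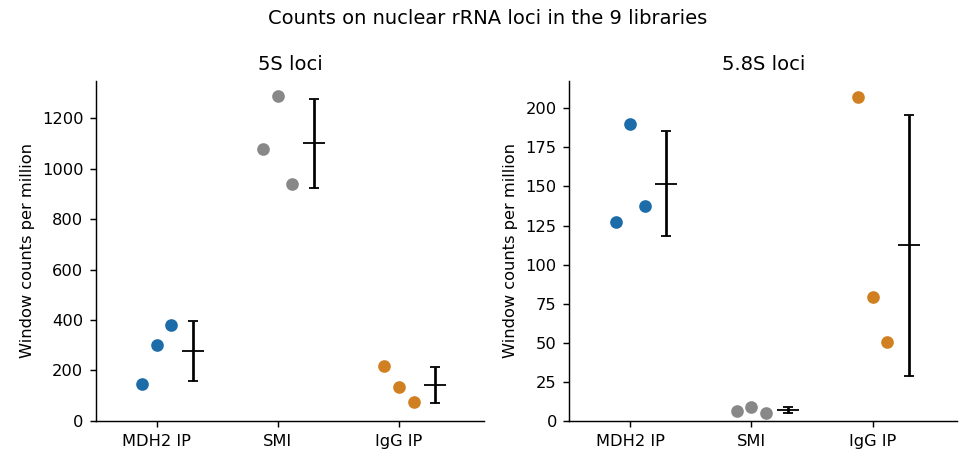
CPM on the 5S loci and on the 5.8S loci (y axes, separate scales) in MDH2 IP, SMI and IgG IP. Points are the 3 libraries of each group and bars the mean with its SD. The 5S counts of the SMI lie between 939 and 1287, above all IP libraries, and its 5.8S counts between 5.31 and 8.98, below all IP libraries.

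Few loci carried most of these counts. RNA5SP149 alone held 25.4% of the 5S counts of the SMI, 23.8% of those of the MDH2 IP and 25.2% of those of the IgG IP, and the 5 leading 5S loci of each group held 62.5%, 58.2% and 54.4%. RNA5-8SP2 held 98.4% of the 5.8S counts in the MDH2 IP and 98.4% in the IgG IP, against 43.9% in the SMI. The 5.8S sum of the IPs was thus the count of this pseudogene. Counts were spread thinly over the rest, since 119 of the 246 loci had 10 or fewer counts over the 9 libraries and 40 had over 100. Without a filter, 221 loci had counts in the SMI, 140 in the MDH2 IP and 81 in the IgG IP, and 99 had them in the SMI only. The mean CPM was higher in the SMI than in the MDH2 IP for 189 loci and lower for 53.

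Each locus was then tested between MDH2 IP and SMI in a fit of all genes with edgeR's quasi-likelihood test, for loci that reached 10 counts in 3 or more of the 6 libraries. Of the 54 loci that passed this filter, 39 were lower and 6 higher in the MDH2 IP (Benjamini-Hochberg adjusted p no greater than 0.05), and 9 were not called. Over all 17056 genes tested, 17.9% were lower and 16.4% higher in the MDH2 IP. The 39 lower loci were all 5S. Their log2 fold changes lay between -7.64 and -1.30 with a median of -2.87. The median over the 52 tested 5S loci was -2.72, against -0.01 over all genes. It was the same with the 3 loci at 0 in the MDH2 IP set to their value against 3 counts over the group. This filter favors loci that are high in the SMI: 15 of the 54 loci had under 10 counts in every MDH2 IP library, and 2 had under 10 in every SMI library. Of the 37 loci with 10 or more counts in a library of both groups, 25 were lower and 4 higher.

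**Figure D2:**
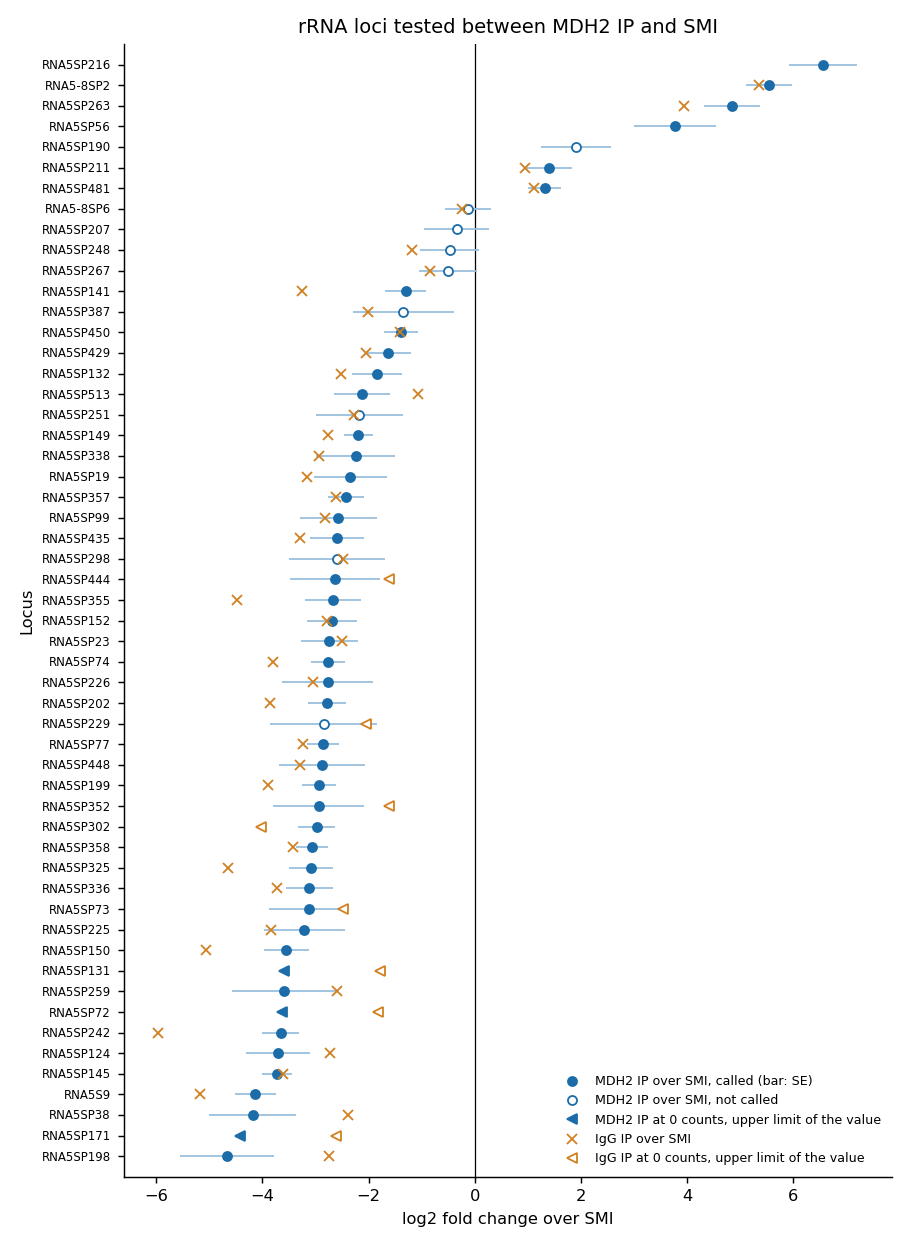
log2 fold change over SMI (x axis) of the 54 tested loci (y axis), for MDH2 IP with its SE and for IgG IP where that was tested. Loci with 0 counts in an IP are drawn at a value computed against 3 counts over the group, marked as an upper limit. The 6 loci called higher lie between 1.31 and 6.56, and their IgG IP values, where tested, are also above 0.

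The 5S loci with the most counts over the 9 libraries were all lower. The SMI held 30179 counts on 5S loci and the MDH2 IP 5669, so this ranking favors loci high in the SMI. The loci with the most counts in the MDH2 IP also include RNA5SP216, RNA5SP263 and RNA5SP481, which were higher and are described below. RNA5SP149 had 340, 515 and 495 counts in the MDH2 IP, 2299, 2757 and 2596 in the SMI, and 156, 65 and 30 in the IgG IP. Its log2 fold change of MDH2 IP over SMI was -2.19 ± 0.28 (SE, adjusted p = 0.00114). RNA5SP202 had 182, 203 and 346 counts in the MDH2 IP, 1986, 2471 and 1840 in the SMI, and 71, 12 and 15 in the IgG IP. The groups MDH2 IP and SMI did not overlap for either locus in CPM or in counts. The log2 fold change of RNA5SP202 was -2.78 ± 0.36 (SE, adjusted p = 0.00117).

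Among RNA5S1 to RNA5S17 only RNA5S9 had counts, and its ratio lay below the median of the lower loci. It had 22, 46 and 41 counts in the MDH2 IP, 612, 1036 and 721 in the SMI, and 12, 2 and 0 in the IgG IP. The MDH2 IP libraries lay far below all SMI libraries, with a log2 fold change of -4.13 ± 0.38 (SE, adjusted p = 0.000381). RNA5SP150, which matches 114 of the 119 bases of 5S rRNA and has the gene type rRNA, had 15, 24 and 41 counts in the MDH2 IP against 342, 475 and 350 in the SMI and 2, 3 and 2 in the IgG IP. Its log2 fold change was -3.55 ± 0.43 (SE, adjusted p = 0.000898). RNA5SP74, a copy with 106 matched bases, had 39, 70 and 57 counts in the MDH2 IP, 415, 553 and 419 in the SMI and 18, 3 and 1 in the IgG IP, with a log2 fold change of -2.77 ± 0.33 (SE, adjusted p = 0.000837). In these 3 loci, too, no MDH2 IP library reached an SMI library.

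Of the tested loci, 3 had 0 counts in all MDH2 IP libraries. RNA5SP171 had 22, 38 and 20 counts in the SMI and 0 in all MDH2 IP and IgG IP libraries. With 3 counts over the MDH2 IP group taken as the floor, the SMI was 21.5-fold higher. RNA5SP72 and RNA5SP131 also had 0 counts in all IP libraries and were 12.3-fold and 12.1-fold higher in the SMI against this floor. A single site can enter 3 windows, so 3 counts on a locus can come from a single site. These folds are therefore not firm lower bounds. The fitted value of -7.64 above belongs to RNA5SP171 and was not computed with this floor.

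The remaining identifiers of gene type rRNA had few counts. RNA5SP172, a 5S locus, had 0 counts in the MDH2 IP and 9, 6 and 6 in the SMI, 5.64-fold higher in the SMI against the same floor. RNA5SP528, also 5S, had 3, 2 and 0 counts in the MDH2 IP and 8, 5 and 4 in the SMI. Another identifier named only 5S_rRNA had 2 counts, both in MDH2 IP replicate 1. Of the 5.8S genes proper, RNA5-8SN2 had 2 counts, both in SMI replicate 3. The locus named 5_8S_rRNA had 12, 6 and 5 counts in the SMI and 0 in every IP library. Against the same floor it was 6.17-fold higher in the SMI than in the MDH2 IP. All 30-base stretches of RNA5-8SN1 occur at 8 to 10 places of the genome. The counts on the remaining identifiers are too few for a test.

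Of the 6 loci that were higher, RNA5-8SP2 had the most counts. It had 1192, 1262 and 791 counts in the MDH2 IP, 10, 51 and 22 in the SMI, and 602, 135 and 79 in the IgG IP. All MDH2 IP and IgG IP libraries lay above all SMI libraries. The log2 fold change of MDH2 IP over SMI was 5.54 ± 0.44 (SE, adjusted p = 0.000155). The other 5.8S loci did not share this. RNA5-8SP6, the next by counts, had 14, 15 and 16 counts in the MDH2 IP and 21, 21 and 17 in the SMI, with a log2 fold change of -0.13 ± 0.44 (SE, adjusted p = 0.841). RNA5-8SP4 had counts only in the SMI, with 7, 4 and 6, and RNA5-8SP5 had 15 counts over all libraries.

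The other 5 loci that were higher are 5S pseudogenes. RNA5SP216 had 130, 152 and 273 counts in the MDH2 IP, 4, 2 and 1 in the SMI, and 49, 12 and 9 in the IgG IP, with a log2 fold change of 6.56 ± 0.65 (SE, adjusted p = 0.000472) over SMI. RNA5SP263, which lies in an intron of NRG1 on the same strand, had 92, 163 and 144 counts in the MDH2 IP, 3, 10 and 4 in the SMI and 42, 16 and 4 in the IgG IP, with a log2 fold change of 4.84 ± 0.53 (SE, adjusted p = 0.000661). NRG1 itself, summed over its windows, was not called (log2 fold change -0.37 ± 0.19, SE, adjusted p = 0.164), nor was HINT3, the gene antisense to RNA5SP216 (-0.45 ± 0.28, SE, adjusted p = 0.252).

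The remaining members of this group showed smaller differences or fewer counts. RNA5SP56 had 15, 21 and 14 counts in the MDH2 IP, 2, 2 and 0 in the SMI and 6, 0 and 0 in the IgG IP, with a log2 fold change of 3.77 ± 0.78 (SE, adjusted p = 0.00698). RNA5SP481 had 76, 99 and 92 counts in the MDH2 IP, 40, 43 and 48 in the SMI, and 32, 25 and 4 in the IgG IP, with a log2 fold change of 1.31 ± 0.31 (SE, adjusted p = 0.0112). RNA5SP211, in an intron of CRYBG1 on the same strand, had 36, 38 and 26 counts in the MDH2 IP, 11, 23 and 11 in the SMI and 19, 2 and 0 in the IgG IP, with a log2 fold change of 1.39 ± 0.44 (SE, adjusted p = 0.0368). In each of these loci every MDH2 IP library lay above every SMI library in counts. The call of RNA5SP211 was lost in the fit of all 9 libraries, where its adjusted p was 0.161, and without any of MDH2 IP replicates 1, 2 and 3 or SMI replicates 1 and 3.

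How completely a locus matches 5S rRNA showed little relation to these changes. The lower loci matched between 56.3% and 99.2% of the 5S bases, with a median of 74.8%, and the 6 higher loci between 42.0% and 90.8% of the 5S or 5.8S bases, with a median of 61.3%. Across the 52 tested 5S loci, Spearman's rho of the log2 fold change and the percent matched was -0.10, as a description over loci that share reads and libraries. Nor did the loci in introns or other parts of a gene on their strand stand out, with 2 of the 6 higher loci (33.3%), 11 of the 39 lower loci (28.2%) and 94 of all 246 loci (38.2%) lying in one.

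**Figure D3:**
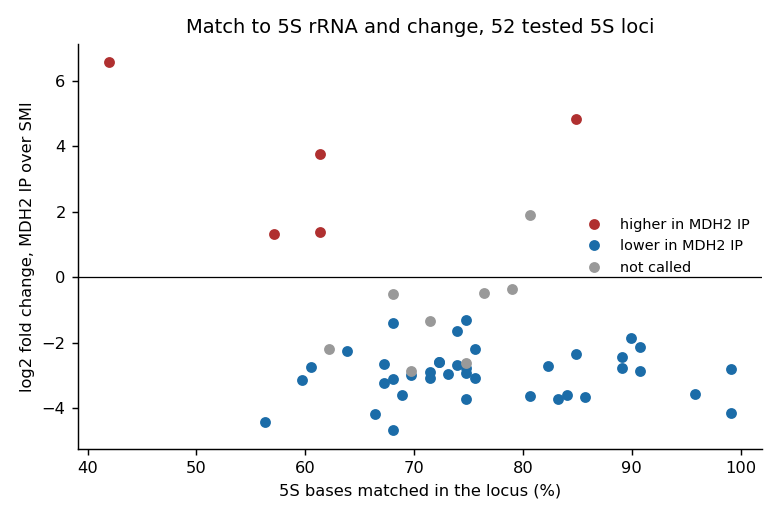
log2 fold change of MDH2 IP over SMI (y axis) against the percent of the 5S bases matched in the locus (x axis), for the 52 tested 5S loci, colored by call. The 3 loci with 0 counts in the MDH2 IP are drawn at their value against 3 counts over the group. Lower loci span 56.3% to 99.2%, and the higher 5S loci lie among or below them.

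Windows were tested one-sided in each direction, with a log2 fold change of at least 1 also required. Of 102 windows tested on 39 loci, 83 were lower and 9 enriched in the MDH2 IP. Over all 51105 windows tested, 9.92% were lower and 4.07% enriched. Of the 102 windows, 53 had under 10 counts in every MDH2 IP library and 7 in every SMI library, and of the 42 with 10 or more counts in a library of both groups, 31 were lower and 3 enriched. The lower windows lay on 32 loci, of which 30 had no tested window with another result, and their log2 fold changes were between -5.20 and -1.63. The 9 enriched windows lay on 4 loci, 3 on RNA5-8SP2, 3 on RNA5SP263, 2 on RNA5SP216 and 1 on RNA5SP481.

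Where windows of a locus overlap, their counts confine the sites to a shorter stretch. On RNA5-8SP2 the windows over RNA positions 41 to 90, 61 to 110 and 81 to 130 had 381, 404 and 403 counts in MDH2 IP replicate 1, so that the 10 bases from 81 to 90, which all of them cover, held at least 377. Over the 3 MDH2 IP libraries these bases, in capitals in the sequence above, held at least 1009 of the 1101 counts of the last of these windows (91.6%). In the IgG IP they held at least 259 of 274 (94.5%), and in the SMI at least 7 of 19 (36.8%). Both kinds of IP therefore had most sites of this window within the same 10 bases, which hold 1 of the 13 substitutions, C82G (base of RNA5-8SN1 first). The log2 fold changes of the 3 windows over SMI were 5.24, 5.14 and 5.67. The windows over RNA positions 1 to 50 and 21 to 70 had at most 3 counts in any MDH2 IP library.

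On RNA5SP216 the sites lay at the very start of the RNA. The window over RNA positions 1 to 43 had 114, 131 and 238 counts in the MDH2 IP, 4, 2 and 1 in the SMI and 39, 10 and 8 in the IgG IP. The next window, over RNA positions 14 to 63, had 16, 21 and 35 counts in the MDH2 IP and 0 in the SMI, at least 29.8-fold higher with a floor of 3 counts over the SMI group. Hence RNA positions 1 to 13 held at least 411 of the 483 counts of the first window in the MDH2 IP (85.1%), and at least 44 of 57 in the IgG IP (77.2%). These 13 bases are those at which 5S rRNA itself begins.

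RNA5SP481 combined a stretch that was enriched with one that was not. RNA positions 41 to 60 held 28, 32 and 27 counts in the MDH2 IP, at most 2, 1 and 1 in the SMI, and 12, 9 and 1 in the IgG IP. The bases just before them, RNA positions 21 to 40, held 9, 14 and 18 counts in the MDH2 IP, at least 17, 20 and 23 in the SMI and 3, 1 and 1 in the IgG IP. The window over RNA positions 41 to 90 was enriched, with a log2 fold change of 4.17 ± 0.51 (SE, adjusted p = 7.97e-06), while the window over RNA positions 1 to 50 had -0.38 ± 0.37 (SE) and was not called. On RNA5SP263 all 3 windows were enriched, with log2 fold changes of 4.37, 4.30 and 4.41, and 1 to 4 counts in each SMI library.

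RNA5SP149 was not lower along its whole length. Its window over RNA positions 1 to 32 had 26, 35 and 36 counts in the MDH2 IP against 632, 692 and 702 in the SMI, and its last window, over RNA positions 43 to 92, had 101, 159 and 139 against 127, 194 and 146. The first of these had a log2 fold change of -4.52 ± 0.27 (SE) and was called lower, and the last had -0.33 ± 0.26 (SE) and was not called. The last window held 80.3% ± 1.43 of the counts of the 2 windows in the MDH2 IP, 18.6% ± 2.85 in the SMI and 85.7% ± 5.24 in the IgG IP (SD, n = 3 each). No SMI library exceeded 21.9%, and no IP library was under 79.4%. An exact two-sided permutation test of MDH2 IP against SMI gave p = 0.1, the smallest that 3 libraries against 3 allow. On RNA5SP202 the window over RNA positions 61 to 110 held 8.36% ± 1.63 of the counts of that window and the first in the MDH2 IP, 2.22% ± 0.263 in the SMI and 6.80% ± 6.32 in the IgG IP (SD, n = 3 each). The MDH2 IP libraries lay above all SMI libraries, and the IgG IP libraries, with 0% in replicate 2, overlapped both. On RNA5S9 the share of the last window was 19.9% ± 8.10 in the MDH2 IP and 14.9% ± 3.27 in the SMI (SD, n = 3 each), and on RNA5SP150 it was 23.8% ± 16.7 and 22.4% ± 0.833. In both, the MDH2 IP and SMI libraries overlapped. The share in the IgG IP was 0% in all libraries for RNA5SP150. For RNA5S9 it was 50% and 100% in IgG IP replicates 1 and 2, with 0 counts in replicate 3. These IgG IP shares rest on very few counts.

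**Figure D4:**
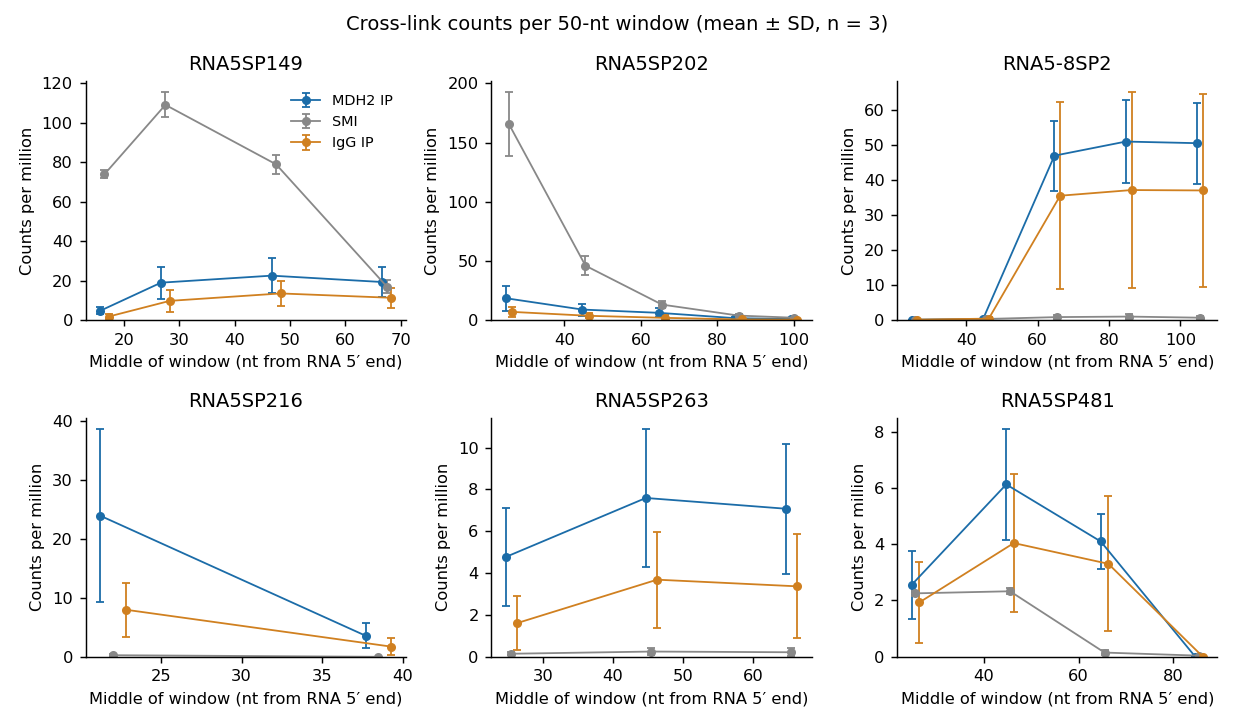
CPM in each window (y axis) against the middle of the window in nt from the RNA 5′ end (x axis), for 6 loci, as mean and SD of 3 libraries per group. The SMI falls from the first to the last window of RNA5SP149 while the MDH2 IP does not, and on RNA5-8SP2, RNA5SP216 and RNA5SP263 the SMI stays near 0.

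With all 5S loci laid on the 5S sequence, windows centered on positions 1 to 40 held 54.1% ± 1.61 of the 5S counts in the SMI, 42.3% ± 4.09 in the MDH2 IP and 35.8% ± 3.47 in the IgG IP (SD, n = 3 each). No IP library reached an SMI library. Windows centered on positions 41 to 80 held 39.0% ± 1.04 in the SMI, 50.7% ± 3.14 in the MDH2 IP and 54.2% ± 5.07 in the IgG IP. The size of this difference changed with the loci included. Without RNA5SP149 and RNA5SP202, positions 1 to 40 held 41.5% ± 1.01 in the SMI, 43.1% ± 5.67 in the MDH2 IP and 35.3% ± 3.69 in the IgG IP (SD, n = 3 each). The MDH2 IP libraries then overlapped the SMI, while the IgG IP libraries stayed below it. Without these and the 5 loci that were higher in the MDH2 IP, RNA5SP216 among them, they held 41.5% ± 0.996 in the SMI, 36.9% ± 4.62 in the MDH2 IP and 30.1% ± 1.45 in the IgG IP (SD, n = 3 each). Of the MDH2 IP libraries, 2 then lay below every SMI library, and the third, at 41.4%, lay among them. The lower level of 5S in the MDH2 IP was also seen without RNA5SP149 and RNA5SP202. Without both, the other 5S loci held 592 ± 124 CPM in the SMI and 175 ± 74.4 in the MDH2 IP (SD, n = 3 each), 3.38-fold higher in the SMI.

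**Figure D5:**
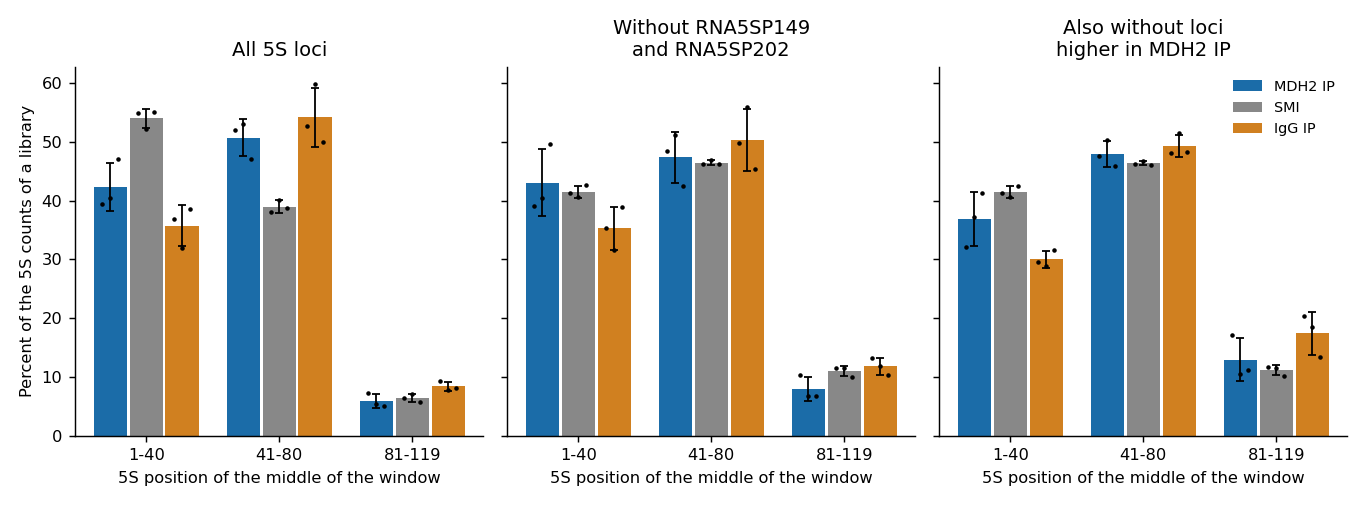
Percent of the 5S counts of a library (y axis) in windows whose middle lies at positions 1-40, 41-80 or 81-119 of 5S rRNA (x axis), for all 5S loci, without RNA5SP149 and RNA5SP202, and also without the 5 loci higher in the MDH2 IP. Bars are means with SD and points the 3 libraries. The SMI mean at positions 1-40 is 54.1% with all loci and 41.5% in both other panels, and the MDH2 IP mean is 42.3%, 43.1% and 36.9%.

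The comparison with the IgG IP addressed which of these differences go with the MDH2 antibody. Of the 25 rRNA loci with enough counts for the test of MDH2 IP against IgG IP, 0 were called higher and 0 lower by edgeR, and 3 had an unadjusted p under 0.05. The Wald test of DESeq2 also called 0, with 2 loci at an unadjusted p under 0.05. Over all 15491 genes tested, 4.64% were higher and 7.77% lower in the MDH2 IP. Of 23 windows, 0 were called in either direction and 0 had an unadjusted p under 0.05 by edgeR, and DESeq2 also called 0, against 0.148% enriched and 4.77% lower over all 30424 windows. The log2 fold changes of the 25 loci lay between -0.13 and 2.43, with a median of 0.67 against 0.02 over all genes. Of the 23 tested 5S loci, 22 lay above 0 and 1 below, and the 2 tested 5.8S loci lay above 0. Under 10 counts in every IgG IP library were found for 12 of the 25 loci, and 0 had so few in the MDH2 IP. The filter thus favored loci high in the MDH2 IP. The log2 fold changes of the windows lay between -0.57 and 0.68, with a median of 0.06 against 0.15 over all windows.

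For the loci that led over SMI, the values against IgG IP were small or poorly determined. RNA5-8SP2 had a log2 fold change of MDH2 IP over IgG IP of 0.27 ± 0.42 (SE, adjusted p = 0.701), RNA5SP216 of 1.27 ± 0.51 (SE, adjusted p = 0.13), RNA5SP263 of 0.94 ± 0.52 (SE, adjusted p = 0.261) and RNA5SP481 of 0.29 ± 0.50 (SE, adjusted p = 0.735). The windows of RNA5-8SP2 had -0.41, -0.36 and -0.36 and those of RNA5SP481 -0.46, -0.29 and -0.57, below 0 where the locus values were above it. Windows and loci were fitted and normalized separately, and the medians of the tested rRNA windows and loci were 0.06 and 0.67. Window and locus values are thus not on the same scale. The loci with most counts in the SMI were likewise not called, RNA5SP149 at 0.67 ± 0.38 (SE, adjusted p = 0.273) and RNA5SP202 at 1.19 ± 0.50 (SE, adjusted p = 0.144). The calls changed with the libraries and the filter. IgG IP replicate 1 had 207 CPM on 5.8S loci, above all MDH2 IP libraries, and without it RNA5-8SP2 was higher in the MDH2 IP, with a log2 fold change of 1.08 (adjusted p = 0.0449). With a filter of 1 count in any library, RNA5SP149, RNA5SP202 and RNA5SP216 were higher in the MDH2 IP, with adjusted p of 0.0244, 0.00107 and 0.00185 in edgeR's quasi-likelihood test.

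The IgG IP was set against the same SMI libraries, so that this comparison shares its controls with the first. Of 50 loci tested, 35 were lower and 2 higher in the IgG IP, against 11.4% lower and 16.4% higher over all 15708 genes. All lower loci were 5S, and the higher loci were RNA5-8SP2 and RNA5SP263. RNA5SP216 and RNA5SP56 did not pass the filter in this comparison and were not tested. On RNA5SP216 every IgG IP library had more counts than every SMI library. Side by side, the log2 fold change over SMI was 5.54 in the MDH2 IP and 5.35 in the IgG IP for RNA5-8SP2, and 4.84 and 3.94 for RNA5SP263. For RNA5SP149 it was -2.19 and -2.77, for RNA5SP202 -2.78 and -3.86, and for RNA5S9 -4.13 and -5.18. RNA5SP481 had 1.31 in the MDH2 IP and 1.11 in the IgG IP, where it was not called (adjusted p = 0.134). Of 93 windows, 58 were lower and 3 enriched in the IgG IP, against 6.34% lower and 6.17% enriched over all 26666 windows, and the enriched windows were those of RNA5-8SP2. Of these windows, 82 had under 10 counts in every IgG IP library, and 5 of the lower windows had 10 or more counts in a library of both groups. Of the 50 loci, 39 had under 10 counts in every IgG IP library, and the 35 lower calls include 5 loci with 10 or more counts in a library of both groups.

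Genes linked to these rRNAs or their precursor were also looked up, on lists chosen with earlier results of these data known. Of 10 genes of the 5S RNP and its assembly, 1 was higher and 2 lower in the MDH2 IP over SMI. SSB, the La protein that binds the ends of new RNA polymerase III transcripts, had a log2 fold change of 0.62 ± 0.17 (SE, adjusted p = 0.0207). RO60, which binds misfolded 5S rRNA, fell by 0.90 ± 0.15 on the log2 scale (SE, adjusted p = 0.00271), and MDM2, which the free 5S RNP inhibits, fell by 0.63 ± 0.12 (SE, adjusted p = 0.00516). RO60 and MDM2 were also lower in the IgG IP over SMI, at -1.27 ± 0.28 and -0.86 ± 0.17 (SE, adjusted p = 0.00789 and 0.00455). In the IgG IP over SMI, 7 of the 10 genes were lower and 0 higher, against 11.4% lower and 16.4% higher over all genes. Against the IgG IP, 3 of the 10 were higher in the MDH2 IP, namely RPL5, SSB and HEATR3, and 0 lower. Over all genes in that comparison, 4.64% were higher and 7.77% lower.

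Of 18 tested RNA polymerase III subunits and factors, 6 were higher and 1 lower in the MDH2 IP over SMI, with a median log2 fold change of 0.24. GTF3C1, the largest subunit of TFIIIC, had 0.60 ± 0.13 (SE, adjusted p = 0.00792), and BRF1, a subunit of TFIIIB, had 0.71 ± 0.15 (SE, adjusted p = 0.00744). Against the IgG IP, 3 of the 18 were higher (GTF3C1, GTF3C3 and POLR3A) and 1 lower, with a median of 0.50. GTF3C1 had 0.52 ± 0.15 there (SE, adjusted p = 0.0499). BRF1 was higher in the IgG IP over SMI and lower in the MDH2 IP than in the IgG IP, at -1.01 ± 0.18 (SE, adjusted p = 0.00803). A further list held 10 genes that process or modify 5.8S rRNA or the precursor that yields it. In the MDH2 IP over SMI, 3 were higher (LAS1L, EXOSC10 and SNORD13) and 2 lower (ERI1 and RMRP, the RNA of RNase MRP). Of 5 mRNAs of ribosomal proteins that lie next to 5.8S rRNA in the ribosome, RPL35 was higher and RPL37, RPL26 and RPL39 lower. In the IgG IP over SMI, RPL37, RPL26, RPL39, RPL17, NOL9 and RMRP of these 2 lists were lower and LAS1L was higher. There, 11.4% of all genes were lower and 16.4% higher. Against the IgG IP, EXOSC10, RPL26 and RPL17 were higher in the MDH2 IP and 0 genes of either list lower. These values are those of mRNAs and of small RNAs, not of the proteins. The shares called over SMI can be read against the 16.4% higher and 17.9% lower of all genes given above. Those called over the IgG IP can be read against 4.64% higher and 7.77% lower of all genes. Of the 9 hepatocyte markers, 7 were higher and 0 lower in the MDH2 IP over IgG IP. Over SMI, 2 of them were higher and 0 lower in the MDH2 IP, and 0 were higher and 2 lower in the IgG IP.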

How the data were processed

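The authors deposited counts of cross-linking sites, not normalized, in 50-nt windows, offset by 20 nt, along exons and introns of GENCODE v23 genes on GRCh38. They trimmed reads with cutadapt, aligned them with STAR, discarded reads with over 10 alignments and removed PCR duplicates by molecular identifiers. The number of sample columns not used was 0. From these counts, edgeR 4.0.16 (R 4.3.3; TMM, quasi-likelihood test, no block) was fitted to all windows, or to all genes after summing their windows, keeping rows that reached 10 counts in 3 or more of the 6 libraries. The window p-values were one-sided, scaled up by how many tested windows overlap the window, then Benjamini-Hochberg adjusted over all tested windows. A window was called when the adjusted p did not exceed 0.05 and the log2 fold change was 1 or more in size. The gene p-values were two-sided. The SE of a log2 fold change was derived from the test, as its size divided by the square root of the quasi-likelihood F. CPM values are shares of window sums, in which a site can enter 3 times. A fold against a group at 0 was computed against 3 counts over the group.

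Gene types, names and positions were taken from GENCODE v44, in which 245 of the 246 identifiers have the same version as in the table. Windows are numbered along the genome, as checked on RN7SL1 and RN7SL2, whose profiles correlate at 0.90 over 14 windows only when those of the second, on the other strand, are reversed. Sequences were read from GRCh38, those of 5S loci are not reported here, and exact matches of 30-base stretches were counted over 194 contigs on both strands. Loci were aligned with Biopython 1.88.

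The loci and gene lists were chosen with earlier results of these data known. The loci named are those called in a comparison, the 5 with the most counts in each of the 5S and 5.8S groups, and every locus of gene type rRNA with a count, summarized where they exceed about 30. Alternatives were DESeq2 1.42.0, total counts as library size, lower filters, a fit of all 9 libraries, a replicate block, and leaving out each library. Nothing states that replicates came from separate cultures, so p-values measure the spread between these libraries, which may be technical. All replicate pairs differed by more than the sampling noise (chi-square per degree of freedom at least 6.26). On simulated counts of MDH2 IP and SMI, 97% of 200 windows raised 4-fold were recovered among 44592 windows with 7 false calls, and 91.5% of the genes so raised among 16576 with 14. The simulated windows were drawn independently and called by a two-sided adjusted p alone. The scaling for overlap and the fold change threshold were left out, so these figures describe the fit and not the window calls. The floor of a window covers counting error only. On a locus, 3 counts can come from a single site, so the floor of a locus does not cover its counting error. Tables and plots were made with Python 3.11.15, pandas 2.3.3, scipy 1.17.1 and matplotlib 3.10.9.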

Additional observations from a re-analysis of the deposited data

How the results depend on the processing

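Of the 9 windows enriched in the MDH2 IP over SMI, all 9 stayed enriched with DESeq2, total counts as library size, the filter of 5 counts, the fit of all 9 libraries and the replicate block. Without any MDH2 IP library 3 remained, since the other 6 no longer passed the filter, and when 10 counts in 2 of the 5 libraries were required all 9 were called, a setting chosen after seeing the data (range over all fits without a library, 3 to 9). Lower windows numbered 31 to 98 over the fits without a library, 31 without each SMI library, when 47 to 49 windows could be tested. Loci higher in the MDH2 IP numbered 3 to 7 in these fits, 3 without MDH2 IP replicate 2 or 3, and lower loci 19 to 44, 19 without SMI replicate 1 or 2 and 23 without SMI replicate 3. Lower loci numbered 59 with a filter of 1 count. In MDH2 IP over IgG IP, 3 loci were higher with that filter and 0 to 1 over the fits without a library. In IgG IP over SMI, enriched windows numbered 3 to 5 and lower windows 5 to 62 without a library, higher loci 1 to 4 and lower loci 5 to 32, the 5 each time without an SMI library, and 20 without SMI replicate 1 under the filter of 2 libraries. Higher loci there numbered 4 with the filter of 5 counts. The number of lower windows fell to 39 without IgG IP replicate 1.

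Relative to exon windows only, the loci held 758 CPM in the MDH2 IP, 2378 in the SMI and 705 in the IgG IP, against 428, 1108 and 255 relative to all windows, and with windows that do not overlap the SMI held 1510. Log2 fold changes that turned were all of results not called: RNA5-8SP6 over SMI (-0.33 to 0.13 over the fits without a library), RNA5-8SP2 and RNA5SP481 over IgG IP (-0.072 to 1.08 and -0.11 to 0.66), the last window of RNA5SP149 over SMI (0.24 with total counts, -0.57 to 0.072 without a library) and the first window of RNA5SP481 over SMI (0.19 with total counts, -0.70 to 0.12 without a library). Total counts as library size moved the median of all windows over SMI from 0.05 to 0.62. Same-numbered MDH2 IP and SMI libraries deviated together with correlations of 0.09, 0.39 and 0.41, and each correlated best with its own number. By the paper's methods the SMI was set aside before the IP, so same-numbered libraries may be pairs. The labels do not state this, and the main fit used no block. With the replicate block, 85 windows were lower and 9 enriched in the MDH2 IP over SMI, against 5994 and 3819 of all 51105 windows. Without the block, 5070 and 2080 of all windows were called. With it, 42 loci were lower and 7 higher, against 5021 and 4654 of all 17056 genes. Without it, 3061 and 2800 of all genes were called.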
